A study of Mus musculus with 12 samples.

Results

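Fibronectin and 7 matricellular proteins were followed in mouse bone marrow mesenchymal stem cells (MSCs) as 8 genes chosen by name among the 55401 genes in the count table: Fn1 (fibronectin), Tnc (tenascin-C), Thbs1 and Thbs2 (thrombospondins), Postn (periostin), Sparc (osteonectin), Tgfbi (TGF-β-induced protein) and Spp1 (osteopontin). They were chosen as a family, with earlier results of these data known. The MSCs came from C57BL/6 mice and were bought as a culture, and 12 mRNA libraries were made, 3 for each of 4 groups: untreated MSCs, MSCs with TGF-β1 at 5 ng/mL, MSCs with TGF-β1 at 5 ng/mL and supernatant of monocytic myeloid-derived suppressor cells (TGF-β1/M-MDSC sup), and MSCs with TGF-β1 at 5 ng/mL and supernatant of granulocytic ones (TGF-β1/G-MDSC sup). The suppressor cells had been grown from C57BL/6 bone marrow with GM-CSF and IL-6 and sorted as CD11b+ cells that were Ly6G- and Ly6C high (M-MDSC) or Ly6G+ and Ly6C low (G-MDSC). No group received supernatant without TGF-β1 or unconditioned suppressor cell medium with TGF-β1, so that an effect of the suppressor cells and one of their medium cannot be told apart.

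Fibronectin is secreted as a soluble dimer and is pulled into fibrils by integrins at the cell surface. The fibrils then serve as a scaffold on which collagens and other matrix proteins are laid down. Matricellular proteins are secreted into the same matrix but act mainly as signals: they bind collagen, fibronectin, growth factors and integrins, and change how firmly cells attach. In the adult most are scarce, and they appear in wounds and fibrotic tissue, where TGF-β1 is a well known inducer of several of them.

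The libraries held 73977669 to 84565450 counts. The surface markers of MSCs were present in every group (6 of 7 at a mean of at least 1 FPKM, summed 499 to 598 FPKM over all libraries; FPKM are fragment counts corrected for exon length and library size). Single markers moved between groups: Ly6a (Sca-1) was at 241 to 251 FPKM in untreated MSCs, 13.0 to 18.8 with TGF-β1, 82.6 to 103 with M-MDSC sup and 63.3 to 69.2 with G-MDSC sup, and Pdgfra and Thy1 were lower in every library with TGF-β1 than in untreated MSCs. Their part in the results was not tested. Kit and Pecam1, which MSCs should lack, reached at most 0.218 FPKM together. All 6 libraries with supernatant held transcripts of kidney, of which Umod, the uromodulin of the kidney tubule, had 0 counts in the 6 libraries without supernatant, 214, 223 and 1020 counts with M-MDSC sup and 553, 521 and 592 counts with G-MDSC sup. Liver transcripts set M-MDSC sup replicate 3 and the G-MDSC sup libraries apart, since Alb (albumin) had 0, 0 and 6423 counts with M-MDSC sup and 7588, 7039 and 7827 counts with G-MDSC sup. The 12 myeloid markers summed to 27.3 to 28.9 FPKM in untreated MSCs, 15.6 to 16.9 FPKM with TGF-β1, 22.6 to 28.1 FPKM with M-MDSC sup and 28.1 to 30.5 FPKM with G-MDSC sup, mainly through Cd14. Lyz2 had 0 to 23 counts without supernatant, 71 to 262 with M-MDSC sup and 185 to 262 with G-MDSC sup. S100a9 had 0 counts without supernatant, 12 to 43 with M-MDSC sup and 0 to 160 with G-MDSC sup. Ly6g was highest in untreated MSCs, with 152, 153 and 161 counts. It had 4 to 8 counts with TGF-β1, 0 to 13 with M-MDSC sup and 0 to 18 with G-MDSC sup. Ptprc had at most 26 counts and Itgam at most 42 in any library, and Mpo and Elane had 0 counts in all 12 libraries. Counts of genes called with M-MDSC sup against TGF-β1 are therefore given with and without the 4 libraries high in liver transcripts, which leaves 2 M-MDSC sup libraries. These 2 are not free of them, with at most 11 and 15 counts of any of the 8 liver markers, and they hold kidney transcripts. All G-MDSC sup libraries are high in liver transcripts, and no such check could be made there. The part of the kidney, liver and myeloid transcripts in the results was not tested.

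The annotations placed all 8 genes outside the cell, and some of the 8 shared a binding partner. All 8 were annotated to the extracellular region, a term held by 4.97% of the 10226 annotated genes tested. Cell adhesion was annotated for 7 (2.01% of genes tested) and extracellular matrix for 7 (1.09%). Integrin binding was annotated for Fn1, Thbs1, Tgfbi and Spp1 (0.733%), and heparin binding for Fn1, Thbs1, Thbs2 and Postn (0.704%). In KEGG, 5 of the 8 (Fn1, Tnc, Thbs1, Thbs2 and Spp1) belonged to ECM-receptor interaction and to focal adhesion.

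The promoter sequences of Tnc, Postn and Thbs2, the 3 genes with the largest changes, and of Spp1, which differed between the supernatants in part of the tests, are given as the 250 bases before the RefSeq start nearest to the 5′ end of the gene's interval (GRCm38.p6, strand of the gene). For Tnc the interval in the table ends at 64020725, well short of this window, so that the window belongs to a RefSeq start outside the interval measured and its distances may not apply to the transcripts counted. The window of Sparc (55420081 to 55420330) lies inside the interval of that gene, and the same holds for its distance. They are shown to let the changes of these genes be read beside the letters in front of them. Capitals mark matches, on either strand, to the letters CAGACA of a SMAD binding element, TGAGTCA of an AP-1 site, GGAATG of a TEAD site and TATAAA of a TATA box.
Tnc, chr4:64046937-64047186, minus strand: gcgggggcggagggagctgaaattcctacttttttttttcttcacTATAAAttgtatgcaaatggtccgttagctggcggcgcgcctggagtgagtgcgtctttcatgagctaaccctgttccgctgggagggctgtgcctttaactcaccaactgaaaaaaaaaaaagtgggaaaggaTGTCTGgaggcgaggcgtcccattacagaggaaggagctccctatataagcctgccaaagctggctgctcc
Postn, chr3:54360857-54361106, plus strand: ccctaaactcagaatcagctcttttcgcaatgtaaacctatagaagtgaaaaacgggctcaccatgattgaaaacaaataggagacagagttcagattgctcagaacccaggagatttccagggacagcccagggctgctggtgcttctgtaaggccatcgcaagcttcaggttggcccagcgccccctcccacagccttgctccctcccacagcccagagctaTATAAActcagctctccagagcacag
Thbs2, chr17:14694263-14694512, minus strand: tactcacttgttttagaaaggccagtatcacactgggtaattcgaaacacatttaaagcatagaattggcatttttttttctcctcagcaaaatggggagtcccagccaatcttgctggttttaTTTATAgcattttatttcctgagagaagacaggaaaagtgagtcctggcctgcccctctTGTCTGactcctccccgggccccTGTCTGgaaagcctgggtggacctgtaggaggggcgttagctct
Spp1, chr5:104434861-104435110, plus strand: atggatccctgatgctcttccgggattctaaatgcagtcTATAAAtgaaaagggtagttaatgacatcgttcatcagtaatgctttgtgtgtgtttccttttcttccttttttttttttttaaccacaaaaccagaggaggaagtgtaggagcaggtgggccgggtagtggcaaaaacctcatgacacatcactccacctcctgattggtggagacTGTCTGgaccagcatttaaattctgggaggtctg
The printed windows of these 4 genes, which were chosen by their changes, each held TATAAA or its reverse complement, found in 12.4% of 32851 windows of this length. The windows of Sparc and Tgfbi held neither, nor did the other RefSeq windows of Postn and Spp1. In Postn the match lay 26 bases before the start, in Thbs2 126, in Tnc 205 and in Spp1 211. Only these exact letters were searched, so that similar stretches, such as tatataag near the end of the Tnc window, are unmarked. Whether any match acts as a TATA box was not tested. The SMAD letters, found in 17.1% of windows, lay 71 bases before the start of Tnc, 67 and 44 before that of Thbs2, 36 before that of Sparc and 34 before that of Spp1. They were in no window of Postn or Tgfbi. The AP-1 letters (4.46% of windows) and the TEAD letters (12.6%) were in no window of the 6 genes matched in the RefSeq table, and no match overlapped another. Fn1 and Thbs1 were not matched. These are matches of letters, and binding was not measured.

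In untreated MSCs the genes spanned a wide range of levels. The RNA was that of whole cultures, in which fewer cells of a type and less RNA per cell cannot be told apart. Thbs1, an activator of latent TGF-β, was the highest at 732 to 787 FPKM, followed by the phosphoprotein Spp1 at 645 to 705 FPKM and the collagen-binding Sparc at 546 to 599 FPKM. Fn1 (358 to 402 FPKM) and Thbs2 (368 to 383 FPKM) overlapped and could not be ordered. Tnc, a hexameric adhesion modulator, stood lower at 55.2 to 63.1 FPKM. Tgfbi, an integrin and collagen binding protein, was near the limit of the test at 0.790 to 1.24 FPKM (256 to 438 counts), and Postn, which helps collagen cross-linking, had only 55 to 99 counts, or 0.0692 to 0.120 FPKM. With TGF-β1 the order was Thbs1, Spp1, Sparc, Fn1, Tnc, Thbs2, Postn and Tgfbi, with no overlap between neighbours. Tnc and Thbs2 had thus changed places, as had Postn and Tgfbi. With either supernatant, Spp1 had the highest mean, and Tnc and Thbs2 overlapped. Together the 8 genes took 1.67% to 1.76% of the counts in untreated MSCs, 1.93% to 2.08% with TGF-β1, 1.71% to 1.76% with M-MDSC sup and 1.65% to 1.82% with G-MDSC sup.

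**Figure D1:**
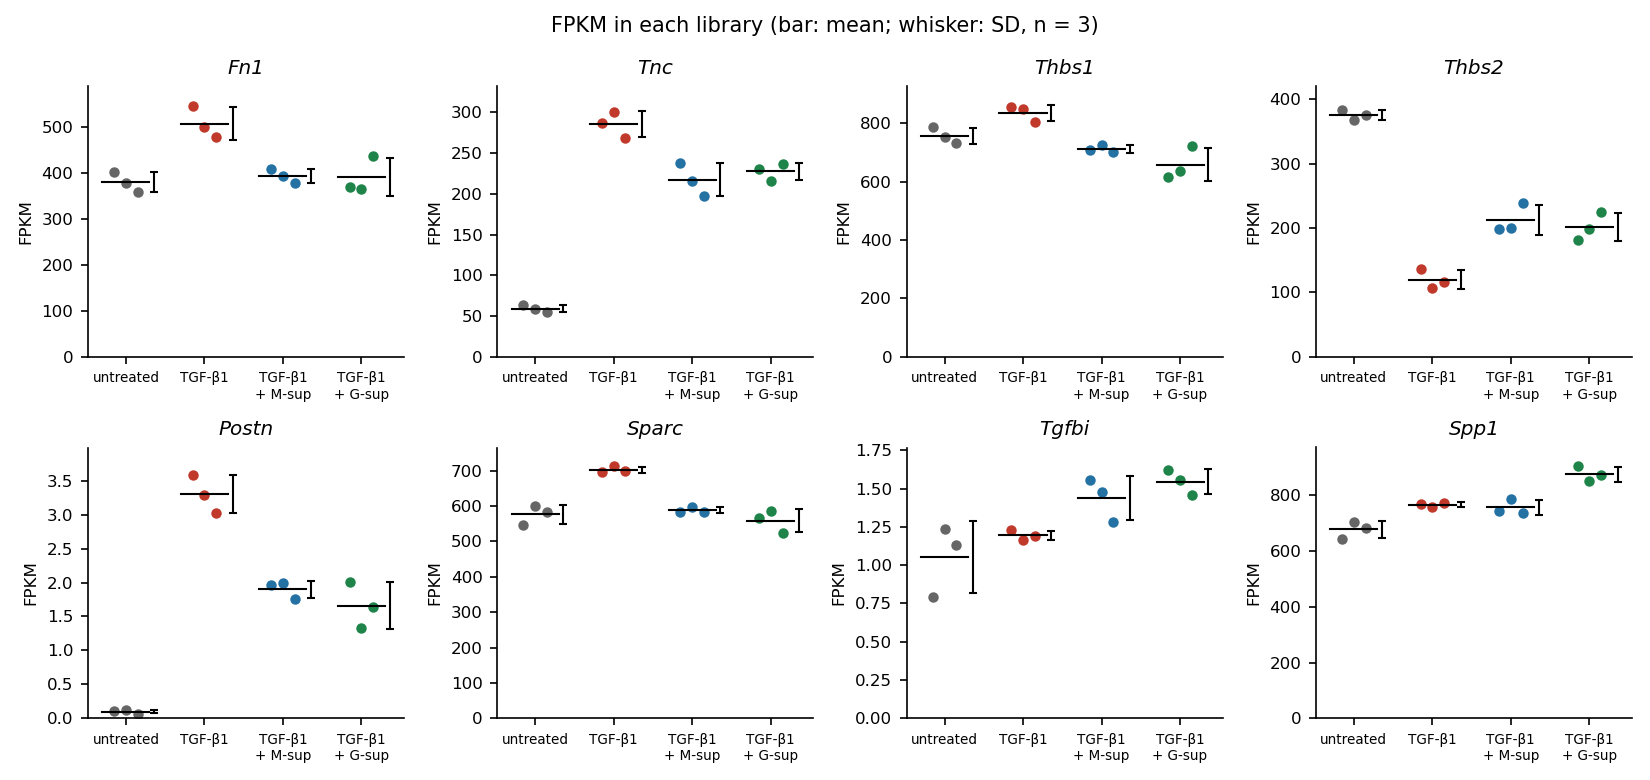
FPKM (vertical axes, linear from 0) of the 8 genes in each of the 12 libraries, with points for libraries, horizontal bars for group means and whiskers for SD (n = 3). Tnc and Postn are lowest and Thbs2 is highest in untreated MSCs, and with either supernatant all 3 lie between the untreated and the TGF-β1 groups.

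The response of these genes to TGF-β1 was examined first. Of the 8 genes, 6 rose and 1 fell at an adjusted p under 0.05, against 16.1% of all genes tested that rose and 17.9% that fell (34% in either direction). Postn and Tnc rose most, Thbs2 fell, and Fn1, Sparc, Spp1 and Thbs1 rose by less than 1.5-fold. The median log2 fold change of the 8 was 0.29, against 0.00048 over all 12016 genes tested. The libraries of the groups did not overlap for 7 genes, and 46.7% of all genes tested had groups without overlap. The study called genes that changed more than 2-fold either way at an unadjusted p under 0.05. Applied to the edgeR fit made here, as in all comparisons below, this rule took in 6.74% of all genes tested and 3 of the 8 (Postn, Tnc and Thbs2). All 8 genes passed the filter of at least 1 FPKM in at least 3 libraries, but Postn did so only through the groups with TGF-β1, so that its inclusion depended on a difference. Aside from Postn, 5 of 7 genes rose and 1 fell. The values of Postn against untreated MSCs are therefore given from the fit without the filter.

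Of the scaffold protein, Fn1 (ENSMUSG00000026193, chr1:71585520-71653175, minus strand) had 402, 379 and 358 FPKM in untreated MSCs and 546, 499 and 477 FPKM with TGF-β1. Every TGF-β1 library was above every untreated one, and the log2 fold change was 0.48 (SE 0.077, adjusted p = 0.000684).

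Among the wound-induced proteins, Tnc (ENSMUSG00000028364, chr4:63959785-64020725, minus strand) had 63.1, 58.9 and 55.2 FPKM in untreated MSCs and 287, 300.3 and 269 FPKM with TGF-β1. The lowest TGF-β1 library was far above the highest untreated one, and the log2 fold change was 2.33 (SE 0.079, adjusted p = 5.15e-09), a 5.03-fold rise. Tnc moved from rank 777 to 928 among all genes by FPKM in the untreated libraries to rank 156 to 181 with TGF-β1. Postn (ENSMUSG00000027750, chr3:54361109-54391037, plus strand) had 0.103, 0.120 and 0.0692 FPKM in untreated MSCs and 3.59, 3.28 and 3.03 FPKM with TGF-β1. The groups did not overlap, and the log2 fold change was 5.13 without the filter (adjusted p = 2.48e-08). In counts this was a change from 55 to 99 per library to 2364 to 2806.

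The thrombospondin genes went in opposite directions. Thbs2 (ENSMUSG00000023885, chr17:14665500-14694235, minus strand) had 383, 368 and 376 FPKM in untreated MSCs and 136, 107 and 115 FPKM with TGF-β1. It fell by 1.59 on the log2 scale (SE 0.11, adjusted p = 8.54e-07), or 3.02-fold, with no overlap. Thbs1 (ENSMUSG00000040152, chr2:118111876-118127133, plus strand) had 787, 755 and 732 FPKM in untreated MSCs and 855, 848 and 806 FPKM with TGF-β1. The groups were close but did not overlap, and the log2 fold change was 0.20 (SE 0.056, adjusted p = 0.0192). This call was lost without untreated replicate 3 (adjusted p = 0.0715), without TGF-β1 replicate 1 (0.0612) and without TGF-β1 replicate 2 (0.0626).

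Of the proteins that bind collagen or mineral, Sparc (ENSMUSG00000018593, chr11:55394500-55423183, minus strand) had 546, 599 and 583 FPKM in untreated MSCs and 695, 712 and 698 FPKM with TGF-β1, without overlap (log2 fold change 0.34, SE 0.046, adjusted p = 0.000172). Spp1 (ENSMUSG00000029304, chr5:104435118-104441050, plus strand) had 645, 705 and 684 FPKM in untreated MSCs and 768, 758 and 774 FPKM with TGF-β1, again without overlap (log2 fold change 0.24, SE 0.041, adjusted p = 0.00112). Tgfbi (ENSMUSG00000035493, chr13:56609523-56639562, plus strand), although named for its induction by TGF-β, had 0.790, 1.24 and 1.13 FPKM in untreated MSCs and 1.23, 1.17 and 1.19 FPKM with TGF-β1. These groups overlapped, and the log2 fold change of 0.24 (95% interval -0.11 to 0.58, adjusted p = 0.279) did not pass the test.

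**Figure D2:**
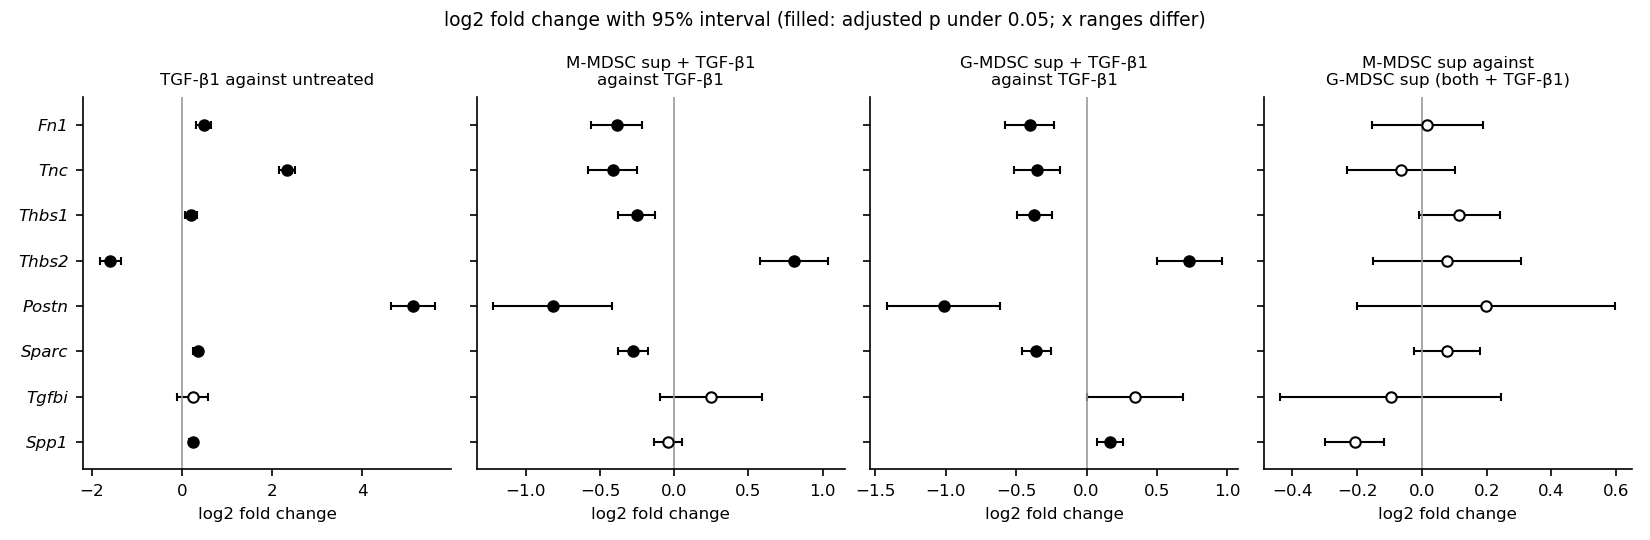
log2 fold changes (horizontal axes, whose ranges differ) of the 8 genes in 4 comparisons, with 95% intervals and filled points where the adjusted p was under 0.05. The intervals of Thbs2 lie below 0 for TGF-β1 against untreated and above 0 for either supernatant against TGF-β1, and the open points in the last panel are the 8 genes not called between supernatants.

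M-MDSC sup was then compared with TGF-β1 alone. Of the 8 genes, 5 fell (Postn, Tnc, Fn1, Sparc and Thbs1) and 1 rose (Thbs2), against 1.95% of all genes tested that fell and 2.83% that rose (4.78% in either direction). The median log2 fold change of the 8 was -0.27, against -0.013 over all genes tested. The groups did not overlap for 7 of the 8, against 24% of all genes tested. No member passed the study's rule, which called 2.18% of genes, because no fold change reached 2. Without M-MDSC sup replicate 3 and the G-MDSC sup libraries, that is, without the 4 libraries high in liver transcripts, 3 genes fell and 1 rose, against 0.699% and 1.96% of all genes in that fit: Fn1, Sparc, Thbs1 and Thbs2 passed (adjusted p = 0.0391, 0.0243, 0.0292 and 0.00487), and Tnc (log2 fold change -0.35, adjusted p = 0.0699) and Postn (-0.76, adjusted p = 0.105) did not.

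Fn1 had 409, 393 and 379 FPKM with M-MDSC sup, all below the TGF-β1 libraries, and fell by 0.39 on the log2 scale (SE 0.077, adjusted p = 0.0161). Its call was lost without TGF-β1 replicate 1 or 2 or without M-MDSC sup replicate 2 or 3 (adjusted p 0.0515 to 0.0703). Against untreated MSCs the Fn1 libraries overlapped (log2 fold change 0.088, 95% interval -0.083 to 0.26, adjusted p = 0.423).

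Tnc had 238, 216 and 198 FPKM with M-MDSC sup and fell by 0.42 (SE 0.075, adjusted p = 0.00889), without overlap. These libraries remained far above the untreated ones, by 1.91 on the log2 scale (adjusted p = 2.18e-08). Postn had 1.96, 1.99 and 1.75 FPKM and fell by 0.82 (SE 0.18, adjusted p = 0.0267), or 1.76-fold. Its libraries did not overlap with those of TGF-β1, but the call was lost without any 1 of the 6 libraries compared (adjusted p 0.0553 to 0.107). Against untreated MSCs, Postn was higher by 4.32 on the log2 scale (adjusted p = 7.82e-08 without the filter).

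Thbs2 had 199, 199 and 239 FPKM with M-MDSC sup and rose by 0.81 (SE 0.10, adjusted p = 0.000912), or 1.75-fold, so that it lay between TGF-β1 and untreated MSCs without overlap with either (against untreated, log2 fold change -0.79, adjusted p = 0.000153). Thbs1 had 708, 727 and 702 FPKM and fell by 0.25 (SE 0.056, adjusted p = 0.0279). All 3 libraries were below those of TGF-β1 and also below those of untreated MSCs, from which the difference did not pass the test (log2 fold change -0.055, 95% interval -0.18 to 0.070, adjusted p = 0.504). The call against TGF-β1 was lost without TGF-β1 replicate 1 or 2 or any M-MDSC sup replicate (adjusted p 0.0704 to 0.106).

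Sparc had 582, 597 and 583 FPKM with M-MDSC sup and fell by 0.28 (SE 0.046, adjusted p = 0.00492), to levels that overlapped with those of untreated MSCs (log2 fold change 0.064, 95% interval -0.037 to 0.17, adjusted p = 0.316). Spp1 had 745, 787 and 737 FPKM, which overlapped with TGF-β1 (log2 fold change -0.042, 95% interval -0.13 to 0.049, adjusted p = 0.681). Spp1 was higher than in untreated MSCs (0.19, adjusted p = 0.00381). Tgfbi had 1.56, 1.48 and 1.28 FPKM, above each TGF-β1 library, but the difference of 0.25 (SE 0.15, adjusted p = 0.467) did not pass. Against untreated MSCs, Tgfbi rose by 0.48 (adjusted p = 0.0319), a call that was lost without untreated replicate 1 (adjusted p = 0.0699), without M-MDSC sup replicate 1 (0.0980) or 2 (0.0815), and without the 4 libraries high in liver transcripts (0.0594). In all, 4 members were higher and 1 was lower with M-MDSC sup than in untreated MSCs, where 16.4% of all genes were higher and 18.9% lower (35.2% in either direction). The groups did not overlap for 6 members, against 47.4% of all genes tested, and 2 members passed the study's rule, against 6.98%. Postn, whose inclusion depended on a difference, is among the 4 higher, the 6 and the 2. Without Postn, the members higher were Tnc, Spp1 and Tgfbi, and only Tnc passed the study's rule.

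G-MDSC sup was compared with TGF-β1 alone in the same way. Postn, Fn1, Thbs1, Sparc and Tnc fell and Thbs2 and Spp1 rose, that is, 5 and 2 of the 8, against 2.46% of all genes tested that fell and 3.1% that rose (5.56% in either direction). The median log2 fold change of the 8 was -0.35, against -0.014 over all genes tested. The groups did not overlap for any of the 8 genes, against 22.7% of all genes tested. By the study's rule, which called 2.17% of genes, 1 member (Postn) was called. The comparisons of both supernatants share the TGF-β1 libraries.

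Postn had 2.01, 1.32 and 1.64 FPKM with G-MDSC sup and fell by 1.02 on the log2 scale (SE 0.18, adjusted p = 0.00715), or 2.02-fold. Tnc had 230.3, 216 and 237 FPKM and fell by 0.35 (SE 0.075, adjusted p = 0.0201), a call lost without TGF-β1 replicate 1 or 2 or G-MDSC sup replicate 1 or 2 (adjusted p 0.0622 to 0.0855). Both remained above untreated MSCs, by 4.12 for Postn (adjusted p = 1.21e-07 without the filter) and 1.98 for Tnc (adjusted p = 1.93e-08).

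Fn1 had 368, 364 and 438 FPKM with G-MDSC sup, the last of these well above the other two, and fell by 0.40 (SE 0.077, adjusted p = 0.0108). The call was lost without G-MDSC sup replicate 1 (adjusted p = 0.0535). Sparc had 567, 586 and 522 FPKM and fell by 0.36 (SE 0.046, adjusted p = 0.000896). Both genes overlapped with untreated MSCs, with log2 fold changes of 0.072 for Fn1 (95% interval -0.10 to 0.24, adjusted p = 0.526) and -0.013 for Sparc (-0.11 to 0.088, adjusted p = 0.859).

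Thbs2 had 181, 199 and 225 FPKM with G-MDSC sup and rose by 0.73 (SE 0.10, adjusted p = 0.00178), or 1.66-fold, while it stayed below untreated MSCs (log2 fold change -0.86, adjusted p = 8.11e-05). Thbs1 had 615, 638 and 724 FPKM and fell by 0.37 (SE 0.057, adjusted p = 0.00278). Every G-MDSC sup library was also below the lowest untreated library for Thbs1 (log2 fold change -0.17, SE 0.056, adjusted p = 0.0379). That call was lost without untreated replicate 1 (adjusted p = 0.106) or 2 (0.0815), without G-MDSC sup replicate 1 (0.136) or 2 (0.117), and without 4 libraries outside the comparison, TGF-β1 replicate 2 and each M-MDSC sup replicate (0.0505 to 0.0528).

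Spp1 had 904, 851 and 873 FPKM with G-MDSC sup, above all libraries of the other groups, and rose by 0.17 over TGF-β1 (SE 0.041, adjusted p = 0.0420). The call was narrow: it was lost without any 1 of the 6 libraries compared (adjusted p 0.0542 to 0.158) and without untreated replicate 3 or M-MDSC sup replicate 1 or 3 (0.0516 to 0.0658). Over untreated MSCs, Spp1 rose by 0.40 (SE 0.041, adjusted p = 2.47e-05). Spp1 is also expressed in kidney tubules, and the kidney transcripts are given beside it. The 10 kidney markers summed to 47.1 to 61.1 FPKM with G-MDSC sup, 15.5 to 83.4 FPKM with M-MDSC sup and 4.68 to 4.82 FPKM with TGF-β1 alone, where nearly all was Aqp1 (in untreated MSCs 29.2 to 30.8 FPKM, again nearly all Aqp1). The G-MDSC sup libraries, highest in Spp1, had 553, 521 and 592 counts of Umod. M-MDSC sup replicate 3, which had the highest Umod count of all libraries (1020) and 6423 counts of Alb, had 737 FPKM of Spp1, the lowest of its group and below each TGF-β1 library. The part of kidney transcripts in the Spp1 values was not tested. Tgfbi had 1.62, 1.56 and 1.46 FPKM, above each TGF-β1 library, with a difference of 0.34 (SE 0.15, unadjusted p = 0.0479, adjusted p = 0.284 in the edgeR test) that did not pass, and rose by 0.58 over untreated MSCs (adjusted p = 0.0135). In all, 4 members were higher and 2 were lower with G-MDSC sup than in untreated MSCs, where 16.4% of all genes were higher and 18.4% lower (34.8% in either direction). The groups did not overlap for 6 members, against 46% of all genes tested, and 2 members passed the study's rule, against 6.8%. Here too Postn, which passed the filter only through the groups with TGF-β1, is among the 4 higher, the 6 and the 2. Those higher besides Postn were Tnc, Spp1 and Tgfbi, and of these only Tnc passed the study's rule.

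**Figure D3:**
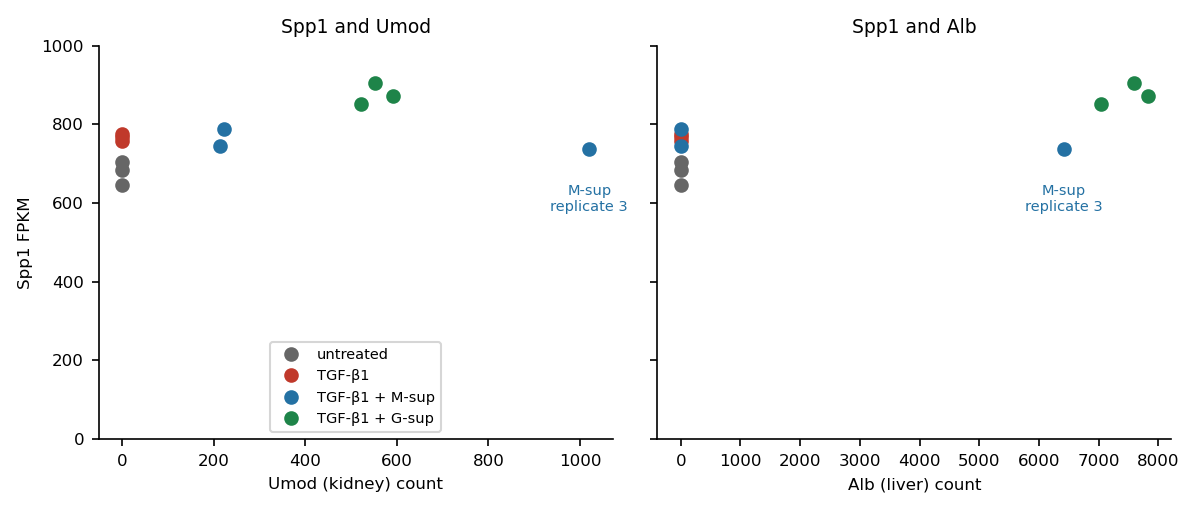
FPKM of Spp1 (vertical axis, linear from 0) against the counts of the kidney gene Umod (left) and the liver gene Alb (right) in each of the 12 libraries, with colours for groups. The G-MDSC sup libraries lie highest for Spp1 (851 to 904 FPKM), with 521 to 592 counts of Umod and 7039 to 7827 of Alb. M-MDSC sup replicate 3, with 1020 counts of Umod and 6423 of Alb, lies at 737 FPKM.

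The supernatants were then compared with each other. No member passed an adjusted p under 0.05 in the edgeR test, which called 0.125% of all genes (0.0999% higher and 0.025% lower with M-MDSC sup), nor the study's rule, which called 0.549%. In edgeR 1 had an unadjusted p under 0.05 (6.33% of all genes tested), and limma called 0 and DESeq2 called 1. The gene was Spp1 in both cases, which was lower with M-MDSC sup (757 ± 26.7 FPKM) than with G-MDSC sup (876 ± 26.6 FPKM), with a log2 fold change of -0.21 (SE 0.041, 95% interval -0.30 to -0.12, adjusted p = 0.132 with edgeR and 0.00691 with DESeq2). It was the only member whose groups did not overlap, against 12% of all genes tested. For the other 7 genes the intervals of the difference held 0. They ran from -0.0092 to 0.24 for Thbs1, from -0.024 to 0.18 for Sparc, from -0.15 to 0.19 for Fn1, from -0.23 to 0.10 for Tnc and from -0.15 to 0.31 for Thbs2 on the log2 scale. Those of the scarcer genes were wider, from -0.20 to 0.60 for Postn and from -0.44 to 0.24 for Tgfbi.

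The ratio of Thbs1 to Thbs2 and that of Tnc to Fn1, pairs known to move unequally in these data, were calculated within each library from FPKM as a description. The Thbs1 to Thbs2 ratio was 2.06, 2.05 and 1.95 in untreated MSCs, 6.29, 7.92 and 6.98 with TGF-β1, 3.56, 3.65 and 2.94 with M-MDSC sup, and 3.39, 3.21 and 3.21 with G-MDSC sup. TGF-β1 alone stood above all other groups, and both supernatant groups stood above untreated MSCs. The supernatant groups overlapped with each other. The Tnc to Fn1 ratio was 0.154 to 0.157 in untreated MSCs and 0.526 to 0.602 with TGF-β1, without overlap. It was 0.523 to 0.582 with M-MDSC sup and 0.541 to 0.625 with G-MDSC sup, and overlapped with TGF-β1 in both. No ratio passed in two-sided exact permutation tests of 8 comparisons (adjusted p 0.2 to 0.8), which with 3 against 3 libraries cannot go below p = 0.1.

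**Figure D4:**
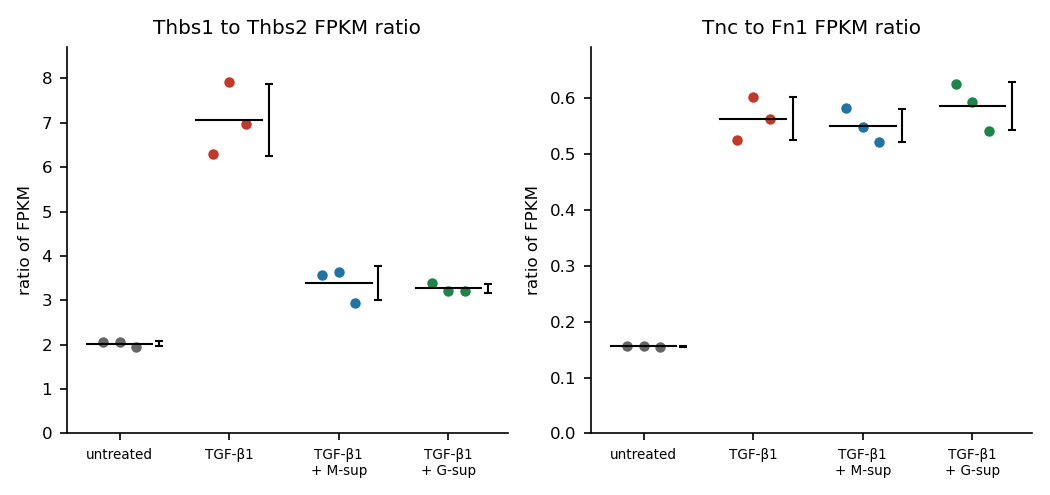
Ratio of FPKM of Thbs1 to Thbs2 (left) and of Tnc to Fn1 (right) in each library, on linear axes from 0, with points for libraries, bars for group means and whiskers for SD (n = 3). The left ratio is 6.29 to 7.92 with TGF-β1 alone and 1.95 to 3.65 in the other groups, and the right ratio is 0.523 to 0.625 in all groups with TGF-β1.

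Lists of genes around the 8 were examined beside them. Of 18 paralogs and family members, only 3 passed the filter. Smoc2, of the SPARC family, rose with TGF-β1 from 2.74 ± 0.136 to 3.74 ± 0.122 FPKM (log2 fold change 0.50, adjusted p = 3.31e-05) and rose further with M-MDSC sup to 4.52 ± 0.155 FPKM (0.25, adjusted p = 0.0229). Without the libraries high in liver transcripts that log2 fold change of Smoc2 was 0.27 (adjusted p = 0.125). Tnxb, of the tenascin family, fell from 1.74 ± 0.120 to 0.548 ± 0.0301 FPKM (-1.61, adjusted p = 2.66e-05), opposite to Tnc. Thbs3 did not pass (-0.14, adjusted p = 0.282). With G-MDSC sup against TGF-β1 none of the 3 was called in the edgeR test, and 1 had an unadjusted p under 0.05, against 17.2% of all genes tested.

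Of 15 receptors of these proteins, 10 passed the filter, and with TGF-β1 7 rose and 3 fell (median log2 fold change 0.47, against 0.00048 over all genes tested, of which 16.1% rose and 17.9% fell). Itga5, the α5 chain of the main fibronectin receptor, rose from 45.0 ± 2.08 to 196 ± 10.1 FPKM (2.18, adjusted p = 1.99e-09). Itga3, the α3 integrin chain, which binds laminins and also thrombospondin, fell from 119 ± 2.20 to 30.9 ± 1.51 FPKM (-1.88, adjusted p = 1.16e-09). Sdc4, a heparan sulfate coreceptor of fibronectin, fell from 80.5 ± 1.74 to 38.9 ± 1.12 FPKM (-0.99, adjusted p = 2.67e-08). Of the 10, 1 was called with each supernatant, against 4.78% of all genes tested with M-MDSC sup and 5.56% with G-MDSC sup, and 5 had an unadjusted p under 0.05 with each, against 16.7% and 17.2% of all genes tested. With M-MDSC sup, Cd47, a thrombospondin receptor, rose to 3.14 ± 0.620 FPKM from 1.94 ± 0.0509 (0.67, adjusted p = 0.0260). Without the libraries high in liver transcripts the log2 fold change of Cd47 was 0.59 (adjusted p = 0.104). With G-MDSC sup Itga3 fell further to 25.5 ± 1.21 FPKM (-0.30, adjusted p = 0.00296). The medians were -0.068 and -0.097, against -0.013 and -0.014 over all genes tested.

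All 10 cross-linkers and matrix partners passed the filter, and with TGF-β1 6 rose and 3 fell (median 0.68), against 16.1% and 17.9% of all genes tested. Bmp1, a protease that processes procollagens and activates lysyl oxidase, rose from 20.5 ± 0.509 to 51.7 ± 1.95 FPKM (1.39, adjusted p = 2.85e-08). Lox, the lysyl oxidase that cross-links collagen and elastin, rose from 252 ± 4.27 to 560.2 ± 23.7 FPKM (1.21, adjusted p = 3.44e-09), and Fbn1 (fibrillin) rose from 8.20 ± 0.950 to 17.5 ± 0.829 FPKM (1.15, adjusted p = 8.38e-06). With each supernatant 3 of the 10 fell and 0 rose in the edgeR test, with medians of -0.12 and -0.15, against 1.95% of all genes tested that fell with M-MDSC sup and 2.46% with G-MDSC sup. At an unadjusted p under 0.05 there were 4 of the 10 with M-MDSC sup and 6 with G-MDSC sup, against 16.7% and 17.2% of all genes tested. Among the genes called with M-MDSC sup the largest falls were those of Fbn1, to 13.1 ± 1.22 FPKM (-0.43, adjusted p = 0.0353), and Lox, to 466 ± 16.8 FPKM (-0.29, adjusted p = 0.000989). Without the libraries high in liver transcripts only Lox was called among the 10 (-0.26, adjusted p = 0.0256; Fbn1 had -0.37, adjusted p = 0.133). Among those called with G-MDSC sup they were those of the elastic fibre protein Fbln5, to 5.98 ± 1.21 FPKM (-0.49, adjusted p = 0.0386), and Lox, to 474 ± 5.70 FPKM (-0.27, adjusted p = 0.00163). Between the supernatants no gene of the 3 lists was called in the edgeR test, the only test run on them, and 1 related gene, 1 receptor and 2 partners had an unadjusted p under 0.05, against 6.33% of all genes tested.

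**Figure D5:**
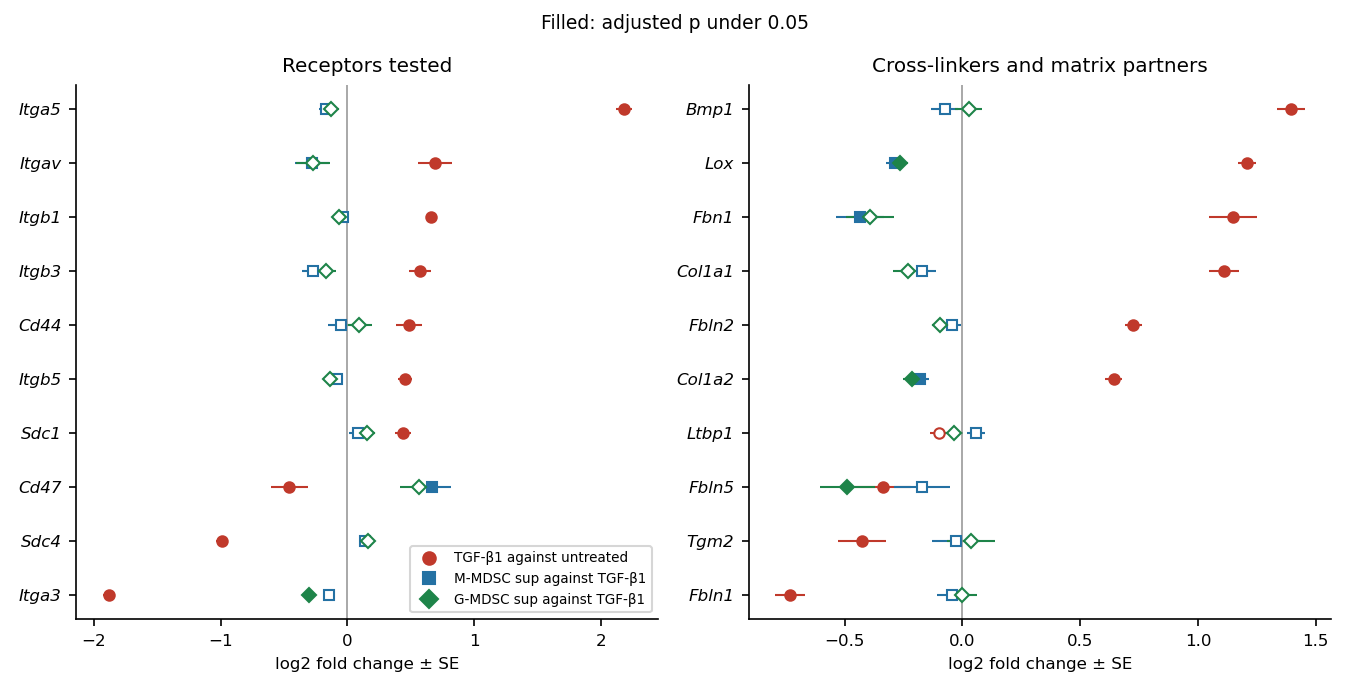
log2 fold changes ± SE (horizontal axes) of the tested receptors (left) and of the cross-linkers and matrix partners (right) with TGF-β1 against untreated MSCs and with each supernatant against TGF-β1, with filled symbols where the adjusted p was under 0.05. The changes with TGF-β1 run from -1.88 (Itga3) to 2.18 (Itga5), whereas 1 receptor and 3 partners are filled for each supernatant.

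The genes whose pattern over the 12 libraries was most like that of each member were listed as a description. The values share the 4 groups, so that a gene that differs between untreated and treated MSCs in any direction contributes to them. For Tnc they were Unc5b, Ank and Enpp1 (Pearson r of log2(FPKM + 1) 0.997 each, n = 12 libraries), and for Postn they were Cdh11, Copa and Fmod (0.989 each). For Fn1 they were Myh9 (0.957), Pkd1 (0.955) and Col12a1 (0.950), and for Sparc Acta2 (0.977), Tpm2 (0.956) and Ccn1 (0.943). Thbs2 was most like Sik1 (0.980), Ly6a (0.976) and Ptpn5 (0.972). Thbs1 was most like Hbs1l (0.952), Nrp1 (0.924) and Cdon (0.913), Tgfbi like Abhd5 (0.955), Cd320 (0.947) and Pex14 (0.938), and Spp1 like Mmp9 (0.935), Inip (0.919) and Dcn (0.917). Among the members themselves, Tnc and Postn were the most alike (0.969), Thbs2 ran opposite to Postn (-0.950) and Tnc (-0.898), and r was -0.0060 for Tnc and Thbs1.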

How the data were processed

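Poly(A) RNA was sequenced by the authors from 12 libraries of mouse MSCs, 3 per group, and groups were taken from the library titles. The authors aligned the reads to GRCm38 with HISAT2 and assembled transcripts with StringTie, and the submitters' processing notes name cutadapt 1.9, HISAT2 2.0.4 and StringTie 1.3.4d. The deposited table holds raw counts per gene and the FPKM that the authors calculated. The counting tool is not given in the sources used here. The treatment time is stated as 24 h for the differentiation assays and not separately for sequencing.

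The 12016 genes that reached 1 FPKM in 3 or more of the 12 libraries were tested in edgeR 4.0.16 (R 4.3.3) by its quasi-likelihood F test (two-sided), with TMM scaling and 1 fit over the 4 groups. Benjamini-Hochberg adjustment covered all genes tested. A gene was called at an adjusted p under 0.05. Levels are FPKM as mean ± SD (n = 3). Alternatives were DESeq2 1.42.0, limma 3.58.1 on log2(FPKM + 1) and log2(FPKM + 0.1), other scaling and filters, fewer groups, a replicate block, counts divided by 4 (44.3% of nonzero counts up to 12 were multiples of 4) and leaving out each library. An alternative without the 4 libraries high in liver transcripts was chosen after seeing the data. Ratios were compared by two-sided exact permutation tests.

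The members, lists and tests were chosen with earlier results of these data known. Named genes are the 8 members, the 3 genes most like each, and of each list the called genes with the largest change (at most 3 with TGF-β1 and 2 with each supernatant). Thbs3 and the single cell type markers were named after their values were seen. The replicate numbers come from the titles, and nothing says that libraries came from separate cultures, so that p-values measure the spread between libraries, which may be technical. Promoters were taken from RefSeq (GRCm38.p6), in which 6 of the 8 genes were matched.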

Additional observations from a re-analysis of the deposited data

How the results depend on the processing

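The counts of members called were recomputed under each alternative. By the study's rule the count was 3 instead of 7 for TGF-β1 against untreated, 0 instead of 6 for M-MDSC sup against TGF-β1, 1 instead of 7 for G-MDSC sup against TGF-β1, and 2 instead of 5 and 6 for M-MDSC sup and G-MDSC sup against untreated. Leaving out each library gave 6 to 7 with TGF-β1, 3 to 6 with M-MDSC sup and 4 to 7 with G-MDSC sup against TGF-β1, 0 between supernatants, and 4 to 5 and 5 to 6 against untreated. The 3 with M-MDSC sup came without TGF-β1 replicate 1 or 2 or M-MDSC sup replicate 2 or 3, and the 4 with G-MDSC sup without its replicate 1. DESeq2 called 1 member between supernatants (Spp1). The changes that reversed were all uncalled: Fn1 between supernatants (-0.023 and -0.032 without G-MDSC sup replicates 1 and 2, -0.014 without M-MDSC sup replicate 1), Tnc (0.00058) and Thbs2 (-0.015) between supernatants without M-MDSC sup replicate 3, and against untreated with G-MDSC sup Sparc (0.00041 without the FPKM filter, 0.027 without untreated replicate 2, 0.032 without G-MDSC sup replicate 3) and Fn1 (-0.020 without that last library). Over all libraries left out in turn, these ran from -0.032 to 0.11 (Fn1), -0.14 to 0.00058 (Tnc) and -0.015 to 0.17 (Thbs2) between supernatants, and from -0.020 to 0.12 (Fn1) and -0.053 to 0.032 (Sparc) with G-MDSC sup against untreated. Of the results for single members, 985 kept direction and side of the threshold, 85 lost the call and 1 gained it. These totals include the study's rule, which is another threshold on the main fit and not another fit. The cause was not tested.

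Same-numbered libraries of different groups did not deviate together (mean r -0.0038 in 18 pairs, and 0.0020 in the 36 pairs whose numbers differed). Only 2 of 12 libraries correlated best with their own number. With the replicate block, 7 members were called with TGF-β1, 5 and 6 with M-MDSC sup and G-MDSC sup against TGF-β1, 0 between supernatants, and 4 and 5 against untreated. The calls lost were Thbs1 with M-MDSC sup (adjusted p = 0.0785), Spp1 with G-MDSC sup (0.0902), and against untreated Tgfbi with M-MDSC sup (0.0517) and Thbs1 with G-MDSC sup (0.0736). Limma on log2(FPKM + 1) lost Thbs1 with TGF-β1 (adjusted p = 0.102) and with M-MDSC sup (0.0716), as did the smaller pseudocount (0.114 and 0.0843). With only the groups compared in the fit, the calls lost were Tnc with M-MDSC sup (adjusted p = 0.0554) and Fn1 with G-MDSC sup (0.0639), and against untreated Tgfbi with M-MDSC sup (0.105) and G-MDSC sup (0.0529) and Thbs1 with G-MDSC sup (0.115). Without the FPKM filter they were Spp1 with G-MDSC sup (0.0696), and against untreated Tgfbi with M-MDSC sup (0.0527) and Thbs1 with G-MDSC sup (0.0697). The lowest counts among the members were those of Postn in untreated MSCs (55 to 99) and of Tgfbi (256 to 578 over all libraries).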
